A study of Mus musculus with 5 samples.

Results

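The genes described here are 8 genes of adrenal steroid synthesis, Star, Cyp21a1, Cyp11a1, Cyp11b1, Hsd3b1, Fdx1, Nr5a1 and Scarb1, in 5 pools of whole mouse lung. Members were found as the probe sets that the platform annotation assigns to a listed gene and to no other. This gave 13 of the 22626 probe sets on the arrays, for 7 of the 8 genes and out of 12393 genes named in the table. Cyp11b1 had no such probe set and is not analysed here. The list was chosen by the high intensities of some of these genes in the wild-type pool, Star and Cyp21a1 first, so every ratio against wild type below is a description.

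RNA pooled from several animals was hybridised to 1 array for each condition. The first pool was SM22-tet-BMPR2delx4+ mice given doxycycline (titled 8 weeks), in which the drug switches on a dominant-negative BMPR2 under a smooth muscle promoter. Their right ventricular pressure was 50 ± 8 mmHg. The second was hypoxic FVB/N mice, kept 4 weeks in hypoxia and 8 weeks old, with the same pressure of 50 ± 8 mmHg. The pools at 30 ± 3 mmHg were SM22-tet-BMPR2delx4+ mice without doxycycline (titled 8 weeks), SM22-rtTA mice on doxycycline (titled 8 weeks), which carry the doxycycline-dependent activator without the mutant receptor, and wild-type FVB/N mice aged 8 weeks. No label gives the strain of the transgenic mice, the number of animals in a pool or the kind of error after each pressure.

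Steroid hormones are made from cholesterol, which enters cortical cells of the adrenal largely through a lipoprotein receptor and is carried into mitochondria before its side chain is cut. A chain of cytochrome P450 enzymes and a dehydrogenase then yields glucocorticoids and mineralocorticoids, and the nuclear receptor encoded by Nr5a1 drives most of these genes. Adult lung is not a main site of this synthesis, although the receptor and the ferredoxin of the pathway are used by many tissues.

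The 250 bases before each start are shown for the members that RefSeq's promoter table on GRCm38.p6 holds, 3 of the 8. Cyp11a1 and Hsd3b1 were lower in every other pool than in wild type, while Fdx1, shown beside them, was above the noise floor in all 5 pools and called lower in 2 of the 4. Capitals mark CAAGGNC on either strand, a 7-base core of the sites bound by the Nr5a1 protein. Cyp11a1 has 2 starts in the table and is shown for both.
Cyp11a1, chr9:57997774-57998023, plus strand: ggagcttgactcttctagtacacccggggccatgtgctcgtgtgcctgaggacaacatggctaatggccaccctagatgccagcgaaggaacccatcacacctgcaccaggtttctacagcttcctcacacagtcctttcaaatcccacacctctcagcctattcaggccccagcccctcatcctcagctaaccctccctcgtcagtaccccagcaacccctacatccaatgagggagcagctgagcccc
Cyp11a1, chr9:58014702-58014951, plus strand: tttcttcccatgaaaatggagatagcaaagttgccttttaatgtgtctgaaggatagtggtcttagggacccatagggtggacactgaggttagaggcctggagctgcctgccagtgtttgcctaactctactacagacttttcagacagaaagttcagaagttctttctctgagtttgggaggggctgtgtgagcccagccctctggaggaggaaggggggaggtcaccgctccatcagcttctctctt
Hsd3b1, chr3:98859795-98860044, minus strand: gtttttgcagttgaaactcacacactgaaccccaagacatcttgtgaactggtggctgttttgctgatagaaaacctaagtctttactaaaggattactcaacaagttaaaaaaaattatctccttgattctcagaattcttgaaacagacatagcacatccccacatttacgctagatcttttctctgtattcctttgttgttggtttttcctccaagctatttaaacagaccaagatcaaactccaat
Fdx1, chr9:51963603-51963852, minus strand: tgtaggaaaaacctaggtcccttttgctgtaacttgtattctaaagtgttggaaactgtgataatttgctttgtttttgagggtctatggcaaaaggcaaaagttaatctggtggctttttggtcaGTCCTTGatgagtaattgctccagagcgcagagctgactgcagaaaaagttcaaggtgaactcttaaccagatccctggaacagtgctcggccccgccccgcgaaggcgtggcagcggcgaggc
The core occurred in 1 of these 4 windows, that of Fdx1, as GTCCTTG on the printed strand from -124 to -118 counted back from the start. It occurred in 4938 of the 32851 windows of the same length in the table, or 15.0%. No match in a window says only that these letters are not in it.

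Intensities below are scaled so that the arrays share a median over bright probe sets, and a noise floor was set at 276, the median of all scaled values. A value under the floor has no reliable order, and a ratio against it is a bound, written as at least. Of the 9 comparisons made, that of the 2 transgenic normal-pressure pools had the lowest SD of the log2 ratio (SM22-rtTA over uninduced BMPR2delx4+), 0.34 over the 5904 genes above the floor in every pool. The same SD was 0.62 for SM22-rtTA over wild type and 0.63 for uninduced BMPR2delx4+ over wild type. All 16 listed lung epithelial and endothelial markers were above the floor in each pool, among them surfactant protein C (Sftpc). The wild-type pool also held transcripts that its label does not name. Of 21 measured proximal tubule markers of the kidney, 7 to 10 were above the floor in each of the other pools, against 21 in wild type. Measured genes are those above the floor in at least 1 pool. For 10 of the 21 that pool was wild type alone, so their part of this count was fixed by that rule. The summed intensity of the list was 15971 to 22788, against 100938 in wild type. The kidney genes Slc27a2, Miox and Umod, among the lowest ratios of their lists, were at 46.4 to 113 in the 4 other pools. In wild type these genes were at 7996, 10416 and 7499. Of the 21 tubule genes, 7 were above the floor in all 5 pools. How far lung itself expresses genes of the kidney lists was not tested. Some genes of the kidney lists went the other way. Scnn1b was at 712 in wild type against 949 to 1518 elsewhere, Scnn1g at 931 against 1328 to 1615. Podxl was at 2305 in wild type against 3117 to 3437 elsewhere, and Slc4a4 at 1460 against 2120 in hypoxia. Every comparison with wild type rests on that 1 array, so the members are also compared without it.

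Star encodes the protein that moves cholesterol into mitochondria, the step at which acute hormone signals act. On all 3 of its probe sets, the other pools lay far under wild type. Probe set 1418728_at was at 48.6 in induced BMPR2delx4+, 52.9 in hypoxia, 50.6 in uninduced BMPR2delx4+ and 46.4 in SM22-rtTA, against 2254 in wild type. The deposited values behind 3 of these, those of the induced, hypoxic and SM22-rtTA pools, were at the table's lower limit of 50. Probe set 1418729_at was at 142, 205, 91.6 and 102 in the same 4 pools, against 2373 in wild type. Probe set 1449201_at, the brightest on average and used for the gene, was at 239.7, 172, 220.1 and 148, against 2164 in wild type. All 3 probe sets were thus under the floor in each pool except wild type. By 1449201_at Star was at least 7.84-fold lower in each of the other pools, and by the other probe sets at least 8.16-fold and 8.59-fold lower. These bounds move with the floor: the log2 ratio of hypoxia over wild type was -2.97, and -3.65 or -1.96 with the floor at the 30th or 70th percentile.

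Cyp11a1, the side-chain cleavage enzyme that makes pregnenolone, showed the same arrangement at lower intensity. Its probe set 1448804_at was at 48.6 in induced BMPR2delx4+, 54.3 in hypoxia, 47.7 in uninduced BMPR2delx4+ and 46.4 in SM22-rtTA, against 875 in wild type. The 3 transgenic values were at the deposited lower limit. Cyp11a1 was at least 3.17-fold lower in each of these pools than in wild type, a call that ended with the floor at the 70th percentile (log2 ratio -0.66 for hypoxia over wild type, against -1.66).

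Hsd3b1, the dehydrogenase that turns pregnenolone into progesterone, was above the floor in 2 pools. Its probe set 1448453_at was at 241 in induced BMPR2delx4+, 432 in hypoxia, 149 in uninduced BMPR2delx4+ and 250.04 in SM22-rtTA, against 1909.6 in wild type. Hypoxia was the only pool besides wild type with a value over the floor, and it was 4.42-fold lower than wild type. The 3 transgenic pools were at least 6.91-fold lower. Mouse Hsd3b genes are close copies of each other, and how far this probe set tells them apart is not known here.

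Cyp21a1, the hydroxylase of the glucocorticoid and mineralocorticoid branches, behaved in a like way on its brighter probe set. Probe set 1455691_at was at 229.6 in induced BMPR2delx4+, 499.9 in hypoxia, 196 in uninduced BMPR2delx4+ and 170.3 in SM22-rtTA, against 1883 in wild type. Hypoxia was 3.77-fold lower than wild type, and the 3 transgenic pools, all under the floor, were at least 6.82-fold lower. Probe set 1422333_at had 110.4, 173, 75.6 and 73.1 in those pools, against 1619 in wild type. On it hypoxia too was under the floor, at least 5.86-fold below wild type, so the level of Cyp21a1 in hypoxia rests on 1 of 2 probe sets. A near-identical pseudogene lies beside the mouse gene and could share its probes.

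Fdx1, the ferredoxin that passes electrons to mitochondrial P450 enzymes in many tissues, was above the floor everywhere. It was at 2115 in induced BMPR2delx4+, 1577 in hypoxia, 2301 in uninduced BMPR2delx4+ and 1775 in SM22-rtTA, against 3818 in wild type. Wild type was highest and hypoxia lowest, and the 4 values outside wild type spanned a narrower range than their distance from it. Hypoxia was 2.42-fold lower than wild type (log2 ratio -1.28), SM22-rtTA 2.15-fold, induced BMPR2delx4+ 1.81-fold and uninduced BMPR2delx4+ 1.66-fold. The SM22-rtTA ratio passed 2-fold with the main scaling and not with values as deposited or after quantile normalization.

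Scarb1 encodes the high-density lipoprotein receptor through which rodent adrenal cells take up cholesterol ester. Probe set 1416050_a_at was at 912 in induced BMPR2delx4+, 1258 in hypoxia, 1616 in uninduced BMPR2delx4+ and 1577 in SM22-rtTA, against 2346 in wild type. Probe set 1437378_x_at was at 516, 949, 777 and 822 in those pools, against 1119.8 in wild type. Probe set 1455820_x_at was at 229.8, 243, 459.8 and 295, against 473 in wild type. Wild type was the highest pool on all 3 probe sets. Induced BMPR2delx4+ was the lowest on the first 2, and on the third it was under the floor together with hypoxia. By the first, induced BMPR2delx4+ was 2.57-fold lower than wild type, hypoxia 1.87-fold, SM22-rtTA 1.49-fold and uninduced BMPR2delx4+ 1.45-fold. The suffix of the other probe sets marks probes that may also bind related sequences.

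Nr5a1 encodes steroidogenic factor 1, the nuclear receptor that binds the promoters of the steroid hydroxylases. It was the member that was not highest in wild type. Probe set 1418315_at was at 249 in induced BMPR2delx4+, 472 in hypoxia, 217 in uninduced BMPR2delx4+ and 149 in SM22-rtTA, against 397 in wild type. Hypoxia and wild type were above the floor, with a log2 ratio of hypoxia over wild type of 0.25. Probe set 1421730_at was under the floor in all 5 pools, at 116, 152, 98.0 and 70.1, against 81.5 in wild type. The 3 transgenic pools were at least 1.44-fold lower than wild type on the first probe set, which is under the 2-fold used for a call.

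**Figure D1:**
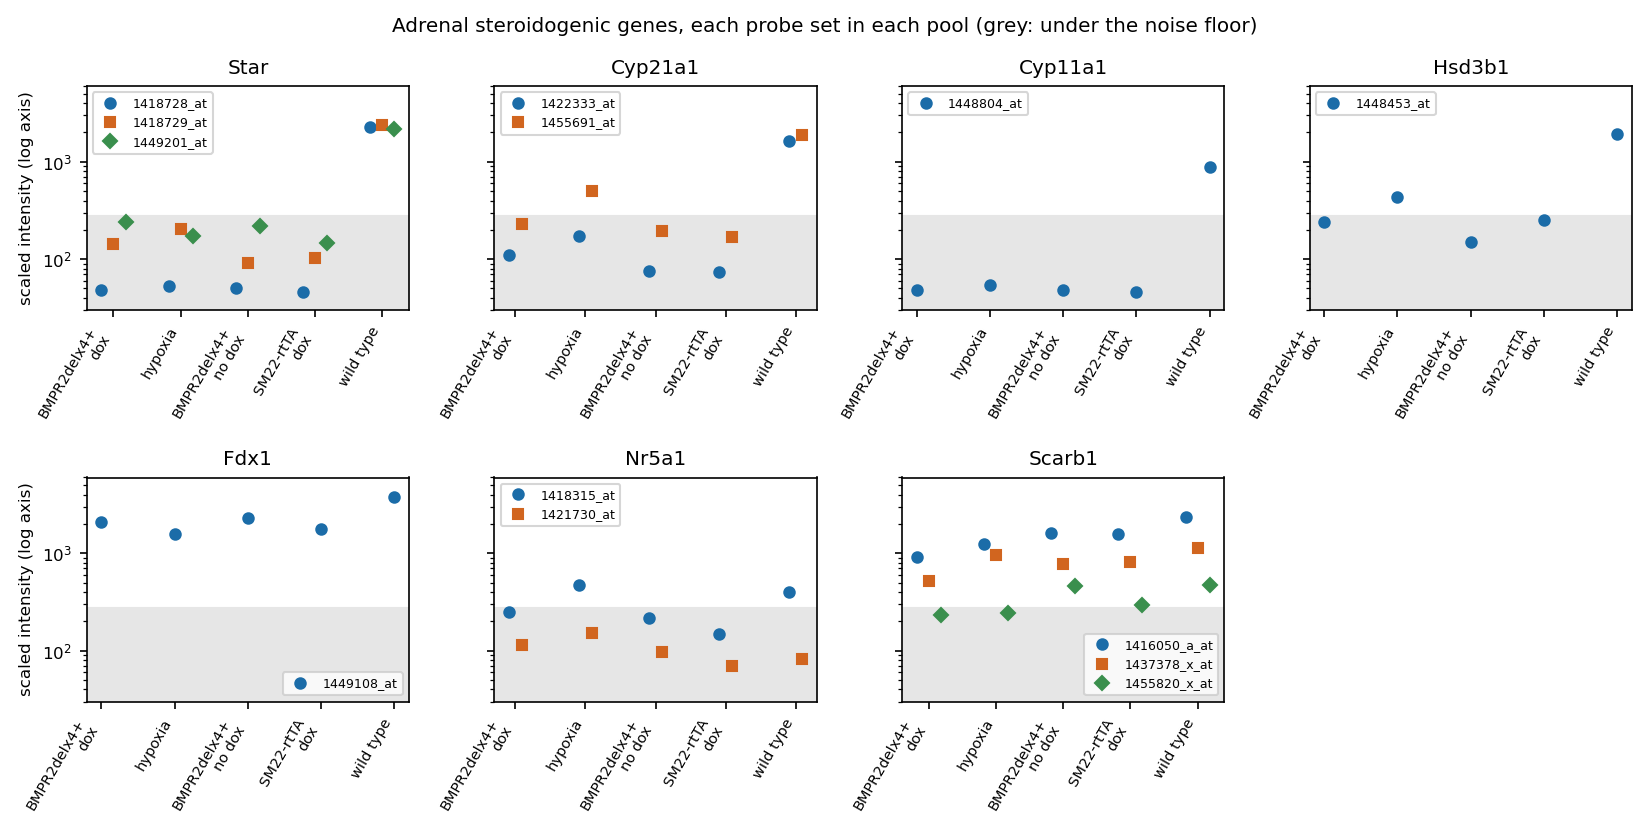
Scaled intensity on a log axis of every probe set of the 7 genes in each of the 5 pools, with 1 point for each array and grey for values under the noise floor of 276. By the brightest probe set of each gene, Star and Cyp11a1 leave the grey area in wild type alone, Cyp21a1, Hsd3b1 and Nr5a1 in hypoxia and wild type, and Fdx1 and Scarb1 in all pools. The dimmer probe set of Cyp21a1 is grey in hypoxia and that of Nr5a1 in every pool.

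Read by which pools passed the floor, Star and Cyp11a1 did so in wild type alone, as 350 of the 8590 measured genes did (4.07%). Measured here means above the floor in at least 1 pool, which all 7 genes were. Cyp21a1, Hsd3b1 and Nr5a1 passed it in wild type and hypoxia alone, as 336 genes did (3.91%). Fdx1 and Scarb1 passed it in every pool. Star, Cyp11a1, Cyp21a1, Hsd3b1 and Nr5a1 were thus under the floor in all 3 transgenic pools.

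At 2-fold, 5 of the 7 genes were lower in hypoxia than in wild type and 0 higher, where 6.55% of measured genes were lower and 1.43% higher. For uninduced BMPR2delx4+ against wild type 4 were lower and 0 higher (background 7.66% and 3.08%). For SM22-rtTA 5 were lower and 0 higher (8.42% and 2.57%), and for induced BMPR2delx4+ also 5 and 0 (5.8% and 4.04%). Star, Cyp21a1, Cyp11a1 and Hsd3b1 were lower in all 4 comparisons, as 337 measured genes were (3.92%), and the fifth gene was Fdx1 or, in induced BMPR2delx4+, Scarb1. By probe set, 8 of 13 were lower in hypoxia (background 6.71% of 12768 measured probe sets) and 7 in uninduced BMPR2delx4+ (7.47%). In SM22-rtTA 8 were lower (8.11%), and in induced BMPR2delx4+ 9 were (5.96%). The 13 include the dimmer Nr5a1 probe set, under the floor in every pool, while the background leaves such probe sets out. The median log2 ratio of the 7 genes was -1.66 in each, against 0.03 for all measured genes in hypoxia and 0.00 in the other pools. That median was the ratio of Cyp11a1 each time, a bound set by the floor. Its equal value in the 4 comparisons is therefore no repeated measurement. With values as deposited, the members' counts were 5, 4, 4 and 5, and the background split moved: 6.11% of measured genes were higher and 5.6% lower in uninduced BMPR2delx4+, 5.46% and 5.74% in SM22-rtTA, and 6.55% and 4.47% in induced BMPR2delx4+. These comparisons share the wild-type array and chose the members, so they lend each other no weight. In pooled tissue, fewer cells of a type and less RNA per cell cannot be told apart.

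**Figure D2:**
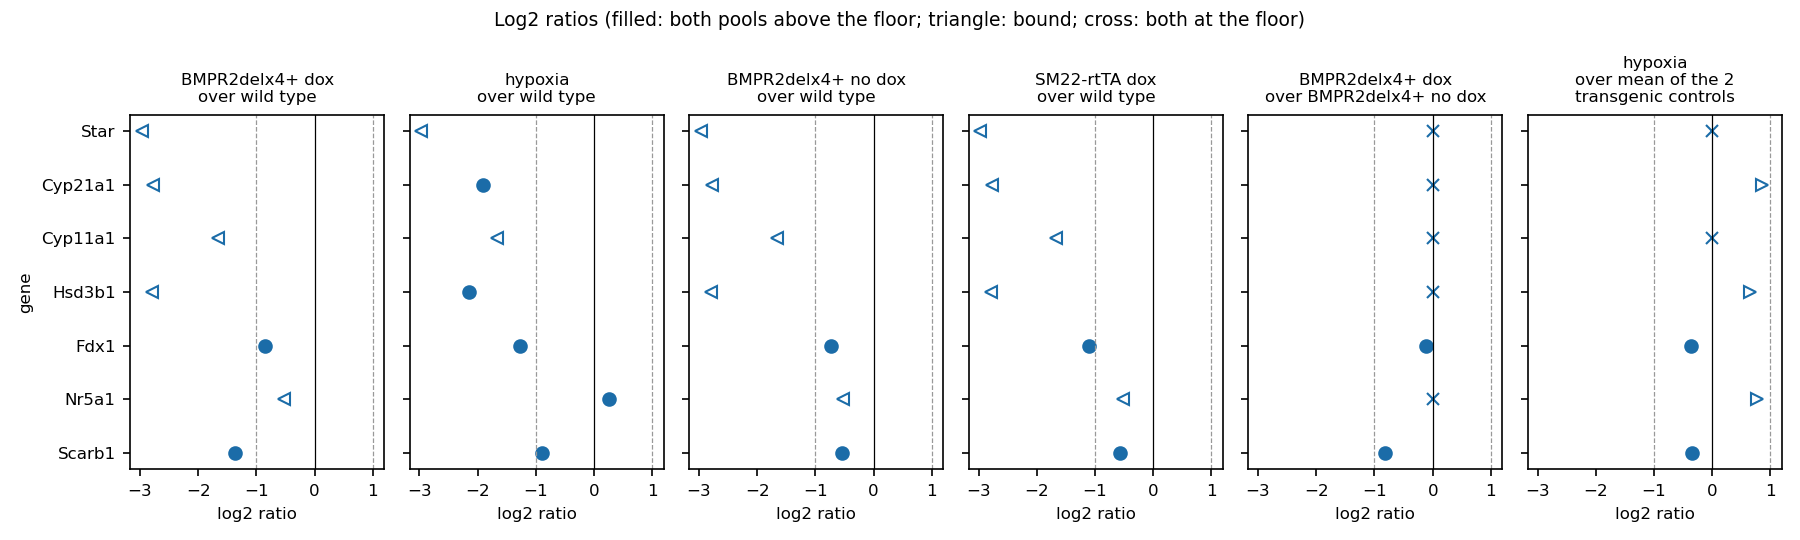
Log2 ratio of each gene, by its brightest probe set, in 6 comparisons, with filled circles where both pools were above the noise floor, triangles for bounds and crosses where both were at the floor. The dashed lines mark 2-fold. Ratios over wild type reach -2.97, while in the last 2 panels, which leave wild type out, no gene passes 2-fold.

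Without the wild-type array, 0 of the 7 genes passed 2-fold in any of the 5 comparisons made. The background share called in either direction was 2.15% for induced over uninduced BMPR2delx4+, 4.24% for induced BMPR2delx4+ over SM22-rtTA, 4.11% for hypoxia over the mean of the 2 transgenic normal-pressure pools, 1.23% for SM22-rtTA over uninduced BMPR2delx4+ and 5.08% for induced BMPR2delx4+ over hypoxia. With so few members, 0 calls is near what those shares give, and for genes at the floor on both sides it was fixed in advance. Star and Cyp11a1 were at the floor on both sides of all 5, so no fold can be given for them. Cyp21a1, Hsd3b1 and Nr5a1 were too in every comparison of 1 transgenic pool with another. In those comparisons only Fdx1 and Scarb1 could be called.

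Among the members, Scarb1 had the lowest ratio between induced and uninduced BMPR2delx4+. Its log2 ratio was -0.82, or 1.77-fold lower, on 1416050_a_at. The other probe sets were 1.51-fold and at least 1.66-fold lower, so 3 of 3 had the same direction. At 1.5-fold Scarb1 was the 1 member called, where 2.57% of measured genes were called lower. Over SM22-rtTA, a control that also received doxycycline, the log2 ratio was -0.79, where 6.11% of measured genes were lower at 1.5-fold. Before any floor the 3 probe sets ran from -0.79 to -0.36. Lung epithelial and endothelial markers had a median log2 ratio of -0.27 in induced over uninduced BMPR2delx4+, with 0 of 16 called. Fat markers moved more, with a median of 1.59, 5 of 8 higher and 0 lower, and over SM22-rtTA a median of 0.96 and 4 of 8 higher. The part of either list in the Scarb1 value was not tested. Fdx1 had a log2 ratio of -0.12 in that comparison and of 0.25 over SM22-rtTA.

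In the hypoxic pool Cyp21a1 and Hsd3b1 lay between wild type and the transgenic lungs, and Nr5a1 was the highest of all pools. Against the mean of the 2 transgenic normal-pressure pools, which were at the floor, Cyp21a1 was at least 1.81-fold higher in hypoxia, Nr5a1 at least 1.71-fold and Hsd3b1 at least 1.56-fold. At 1.5-fold these 3 were called, where 12.2% of measured genes were called higher. With the floor at the 30th percentile the same 3 genes passed 2-fold, at log2 ratios of 1.45, 1.39 and 1.16, and the share of all measured genes called higher was 6.73%, against 3.66% with the main floor. Fdx1 had a ratio of the other sign, -0.36. The probe sets of Scarb1 were divided, with -0.34 on 1416050_a_at and 0.25 on 1437378_x_at. Of 21 proximal tubule genes, 4 were higher at 2-fold in the same comparison and 0 lower. The hypoxic pool also had the most genes above the floor, 7439 against 6820 to 7391 in the other pools. The part of the tubule genes and of that array's dim signal in these values was not tested.

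The other genes of steroid metabolism were taken from lists of partner enzymes and regulators. Of 8 further steroid enzymes measured, 3 were lower in all 4 other pools than in wild type, where 3.92% of all measured genes were. These were Hsd3b2, Hsd11b2 and Cyp51. They were among 5 of the 8 above the floor in wild type alone, so their direction was fixed by counting measured genes only. A further 6 listed enzymes were under the floor in every pool. Hsd3b2, a close relative of Hsd3b1 found in mouse kidney, was at 93 in induced BMPR2delx4+, 70.3 in hypoxia, 80.9 in uninduced BMPR2delx4+ and 74.6 in SM22-rtTA, against 2019 in wild type. Hsd11b2, which inactivates glucocorticoid in the distal nephron, was at 145 to 214 in those pools, against 1138 in wild type. Cyp51, a cholesterol synthesis enzyme, was at 176 to 240, against 1172. Aldosterone synthase, Cyp11b2, stayed under the floor in all pools and was at 48 to 63 against 249 in wild type. Cyp17a1, which adult mouse adrenal lacks and gonads use, was under the floor in all pools. Hsd11b1, which regenerates glucocorticoid in lung, was at 2773 in induced BMPR2delx4+ and 4696 to 5676 in the other transgenic and hypoxic pools, against 4581 in wild type. Its log2 ratio of induced BMPR2delx4+ over hypoxia, -1.03, was the 1 call of this list in the comparisons without wild type.

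Cholesterol handling and electron transfer genes other than the members were mostly not called. Of 16 measured, 2 were 2-fold lower in hypoxia than in wild type, Stard5 and Vdac1, where 6.55% of all measured genes were. In each transgenic pool 3 were lower, against 7.66% in uninduced BMPR2delx4+, 8.42% in SM22-rtTA and 5.8% in induced BMPR2delx4+. These counts lie above the all-gene shares, and 0 genes were higher. The list medians ran from -0.11 to 0.03 on the log2 scale. Apoa1, the main protein of high-density lipoprotein, had the lowest ratios of the list in the transgenic pools, -2.10 in induced BMPR2delx4+, -2.17 in uninduced BMPR2delx4+ and -1.73 in SM22-rtTA, and was -0.99 in hypoxia, not called. Without wild type it was the 1 call of the list, at -1.10 for induced BMPR2delx4+ over hypoxia. Stard5, a lipid transfer protein related to Star, was the 1 gene lower in all 4 other pools, at 301 to 355 against 857 in wild type. Cyb5a, a cytochrome that assists P450 enzymes, was at 4476 in induced BMPR2delx4+, 4123 in hypoxia, 3749 in uninduced BMPR2delx4+ and 3723 in SM22-rtTA, against 7442 in wild type. Its ratios to wild type ran from -0.73 to -0.999 and were not called.

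Among 9 measured regulators 0 were lower in all 4 other pools than in wild type. The list median log2 ratio over wild type was 0.35 in hypoxia, 0.02 in uninduced BMPR2delx4+ and 0 in SM22-rtTA and induced BMPR2delx4+. The 1 call of the list was Gata6, higher in SM22-rtTA than in wild type (log2 ratio 1.295), where 2.57% of all measured genes were higher. The receptor for adrenocorticotropic hormone, Mc2r, was under the floor in every pool, at 109 in induced BMPR2delx4+, 238 in hypoxia, 105 in uninduced BMPR2delx4+ and 95 in SM22-rtTA, against 270.2 in wild type. Its accessory protein gene Mrap, which fat also expresses, was at 175, 423, 150 and 124 in those pools, against 288 in wild type. Like Nr5a1, Mrap was above the floor in hypoxia and wild type alone. Nr0b1, which restrains the Nr5a1 protein, was at the deposited lower limit in all 5 pools. The 1 steroid receptor measured, the glucocorticoid receptor Nr3c1, was at 1057 to 1279, against 915 in wild type.

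Most measured genes of the adrenal medulla, the chromaffin tissue inside the cortex, were also highest in wild type. Of 11 measured, 10 had their highest value there, as 24.9% of all measured genes did. For 4 of the 11, above the floor in wild type alone, this was fixed by counting measured genes only. A further 3 listed genes were under the floor in every pool and are not in this count. The list's summed intensity was 4492 in induced BMPR2delx4+, 5206 in hypoxia, 3754 in uninduced BMPR2delx4+ and 3189 in SM22-rtTA, against 10802 in wild type. The granule proteins chromogranin A (Chga), chromogranin B (Chgb) and secretogranin II (Scg2) were under the floor in the 4 other pools, at 46.4 to 124, against 1257, 1951 and 939 in wild type. These were the 3 genes of the list lower at 2-fold in all 4 pools. Tyrosine hydroxylase (Th), which starts catecholamine synthesis, was at 247, 282, 114 and 91.8, against 490.2 in wild type. Pnmt, which makes adrenaline, was at 1087, 1635, 1052 and 633, against 1687 in wild type, and so was well above the floor in all pools. Without wild type it was the 1 call of the list, with a log2 ratio of 1.004 for hypoxia over the mean of the 2 transgenic normal-pressure pools. Of 5 measured genes listed for the cortex, 2 were lower in all 4 other pools too, where 3.92% of all measured genes were. These were Dlk1 and Dab2, both shared with other tissues, Dlk1 at 49.6 to 141 against 586, and Dab2 at 568 to 937 against 3303. Dlk1 was above the floor in wild type alone, so its direction was fixed by counting measured genes only. The rest of the 5 were not called. Kcnk3 was above the floor in every pool, at 322 to 390 against 644 in wild type. Its log2 ratios over wild type ran from -0.73 in hypoxia to -0.9997 in induced BMPR2delx4+. Wnt4 was above the floor in induced BMPR2delx4+ alone, at 359 against 174 in wild type. Vsnl1 was above it in hypoxia and SM22-rtTA alone, at 319 and 368 against 268. Another 5 listed genes were under the floor in every pool.

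**Figure D3:**
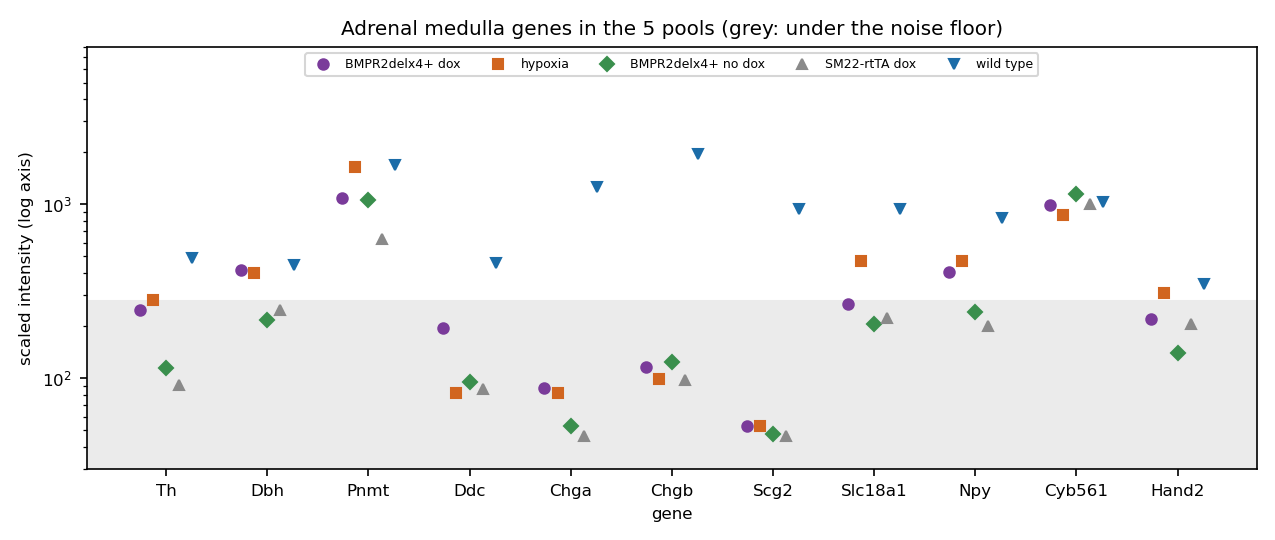
Scaled intensity on a log axis of the 11 measured adrenal medulla genes, with 1 point for each of the 5 pools and grey for values under the noise floor. Chga, Chgb and Scg2 leave the grey area in wild type alone, at 1257, 1951 and 939, while Pnmt and Cyb561 lie above it in all pools.

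Marker lists of other tissues moved with the same array. In all 4 other pools, 15 of 21 proximal tubule genes were at least 2-fold lower than in wild type. So were 6 of 13 distal nephron and glomerular genes and 3 of 7 liver genes, against 3.92% of all measured genes. Above the floor in wild type alone were 10 of the 21, 5 of the 13 and 3 of the 7. The direction of those genes was fixed by counting measured genes only. The summed distal nephron intensity was 9865 in induced BMPR2delx4+, 8963 in hypoxia, 8291 in uninduced BMPR2delx4+ and 7288 in SM22-rtTA, against 30776 in wild type. Of this list, 1 gene was higher than in wild type in uninduced BMPR2delx4+, where 3.08% of all measured genes were. In induced BMPR2delx4+ 2 were higher, against 4.04%. Gonad markers gave 0 of 4 measured. The gonadal hormone gene Amh was at 268 to 579, against 436 in wild type, and germ cell Ddx4 was under the floor throughout. Fat markers gave 0 of 8 in all 4 pools, yet 5 of 8 were lower than in wild type in each of hypoxia, uninduced BMPR2delx4+ and SM22-rtTA, with median log2 ratios of -1.42, -1.73 and -1.40. In induced BMPR2delx4+ 0 were lower and 1 was higher, Ucp1 of brown fat, at 1600 against 797 in wild type. Lung markers also gave 0 of 16, with a summed intensity of 77023 to 91456, against 78202 in wild type. That count does not show genes higher than in wild type. The median log2 ratio of the lung markers over wild type was 0.39 in hypoxia, 0.32 in uninduced BMPR2delx4+ and 0.38 in SM22-rtTA. In induced BMPR2delx4+ it was 0.03. Ratios above 0 numbered 14, 13, 13 and 9 of 16 in the same order. The part of these tissues in the values of the steroidogenic genes was not tested.

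**Figure D4:**
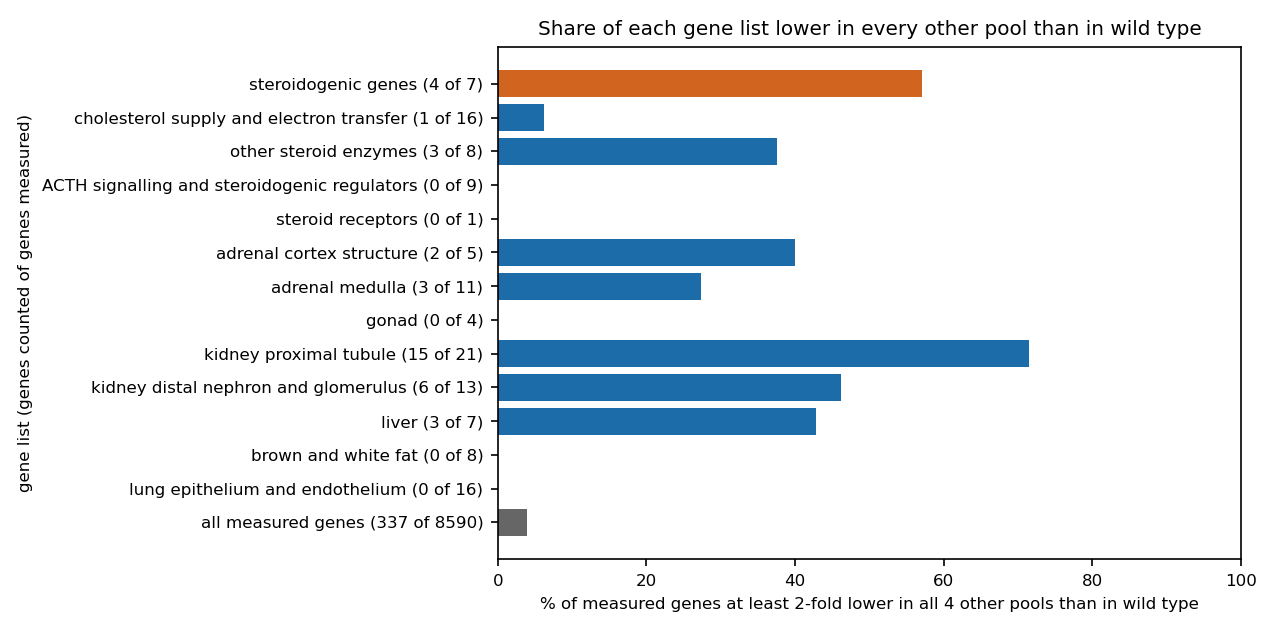
Share of the measured genes of each list that was at least 2-fold lower in all 4 other pools than in wild type, in percent, with counts beside each name. The steroidogenic genes, chosen for this pattern, stand at 4 of 7, proximal tubule genes at 15 of 21, lung genes at 0 of 16 and all measured genes at 337 of 8590. Genes above the noise floor in wild type alone count as measured only through that pool, so their direction was fixed.

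The genes closest in profile to each member were found by the Euclidean distance between floored log2 intensities over the 5 pools, a measure that counts brightness as well as shape. For Star and Cyp11a1, at the floor in 4 pools, it came down to the wild-type brightness of different probe sets, so no neighbours are given for them. Nearest to Cyp21a1 were Folr1, Slc22a8 and Cdhr5, and nearest to Hsd3b1 were Alpl, Dao and Folr1, at 0.31 to 0.43. Slc22a8, an organic anion transporter of the proximal tubule, was at 214 in induced BMPR2delx4+, 588 in hypoxia, 281 in uninduced BMPR2delx4+ and 146 in SM22-rtTA, against 2282 in wild type. Nr5a1 had Aplp1, Atrn and Ppy nearest, at 0.041 to 0.064. Cyp21a1, Hsd3b1 and Nr5a1 were at the floor in the transgenic pools, so their distances rest mainly on brightness in hypoxia and wild type. As 336 measured genes passed the floor in those pools alone, a small distance here is little mark of likeness. For the widely used members the nearest were H2bc22, Dcxr and Higd2a for Fdx1, at 0.38 to 0.47, and Txndc17, Atp6v1a and Vps29 for Scarb1, at 0.48 to 0.50.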

How the data were processed

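Total RNA from whole lung, biotin-labelled per the labels, was hybridised to 1 array for each of 5 pools. The deposited values are linear intensities, 1 per probe set, with none under 50. How the authors summarised and scaled them is not stated. Groups came from sample titles.

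Log2 intensities were shifted per array to share a median over 9046 probe sets, those brighter than the array's 50th percentile on all arrays. Values were raised to a floor at the 50th percentile of all shifted values. Of 22626 probe sets, 20380 had 1 gene (20351 matched by gene ID to RefSeq, GRCm38.p6, for names), 691 several and 1555 none. The probe set with the highest mean stood for a gene. A gene was called at 2-fold with the higher value above the floor. With 1 array per group no test was possible; precision is limited by the number of arrays.

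The members and the 12 other gene lists were chosen with earlier results of these data known. Named genes were all members, the 3 genes nearest to each (left out for Star and Cyp11a1), and from each list up to 4 called genes with the largest ratio or the 2 brightest; other genes were named after their values were seen. Listed genes without a probe set of their own are not analysed here. Calls were tested on simulated data. Alternatives changed scaling, floor, fold and gene summary. Python 3.11.15, numpy 2.4.6 and pandas 2.3.3 were used.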

Additional observations from a re-analysis of the deposited data

How the results depend on the processing

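In the comparisons with wild type, every lower count stayed within 1.5 times across the scalings, floors, folds and the mean of probe sets tried. Counting each probe set gave 8 (hypoxia, background 6.71%), 7 (uninduced BMPR2delx4+, 7.47%), 8 (SM22-rtTA, 8.11%) and 9 (induced BMPR2delx4+, 5.96%). For lower in all 4 pools it gave 7 of 13 (3.81%). These counts differ since more features were counted. The 13 include the dimmer Nr5a1 probe set, under the floor in every pool, which the backgrounds leave out. Without wild type, the counts of 0 became, for hypoxia over the transgenic mean, 3 higher with the 30th percentile floor (6.73% of all measured genes), 2 with a pseudocount of 50 (5.52%) and 3 at 1.5-fold (12.2%). For induced BMPR2delx4+ over hypoxia they became 1 lower with the 30th percentile floor (3.96%) and 3 at 1.5-fold (11.4%). At 1.5-fold, induced BMPR2delx4+ had 1 lower over uninduced BMPR2delx4+ (2.57%) and 1 over SM22-rtTA (6.11%). Of 378 log2 ratios of single members, 309 moved by less than the SD of 0.34 between the transgenic normal-pressure pools, 69 by more, and 0 called ratios changed sign. All 126 ratios under the other scalings were among the 309. Ratios with both pools at the floor are 0 by rule. With values as deposited, those of Star and Cyp11a1 without wild type stayed at 0, so they say little about stability. With values as deposited, the median ratio of all measured genes moved to 0.12 for uninduced BMPR2delx4+ over wild type and to -0.12 for hypoxia over the transgenic mean. The 70th percentile floor left Cyp11a1 uncalled. No paired analysis was possible because each group has 1 array. Signal under the floor limits Star, Cyp11a1 and the transgenic values of Cyp21a1 and Hsd3b1 to bounds.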
